A study of Mus musculus with 6 samples.

Results

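The serum amyloid A genes Saa1, Saa2 and Saa3 were followed in ileal mucosa, taken at the distal end of the small intestine, from mice with and without the DUOX maturation factors. The platform annotation assigned 4 of the 45037 probe sets to these genes, chosen by gene symbol alone: 1419075_s_at and 1450788_at to Saa1, 1449326_x_at to Saa2 and 1450826_a_at to Saa3. All 4 had a mean above the median of all probe sets, 6.58 on the log2 scale. The samples were 3 wild-type (wt) and 3 Duoxa-/- pools from female 129S6 mice of 3 months, where Duoxa-/- mice lack the proteins that carry the dual oxidases to the cell surface to release hydrogen peroxide. Each pool held RNA of 2 to 3 animals of 1 genotype from 1 cage. Each of the 3 cages was a litter and gave 1 pool of each genotype, so that wild-type animals had lived with their Duoxa-/- littermates. Pooling hides the spread between animals, and the sources used here do not give how the Duoxa-/- allele was made. The comparison asked how expression in the ileum differs between Duoxa-/- mice and littermates that shared their cage.

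Serum amyloid A proteins are small apolipoproteins of the acute phase. The liver secretes SAA1 and SAA2 in large amounts during inflammation, where they join high-density lipoprotein, and the epithelium of the intestine also makes them. SAA3 is made mostly outside the liver, for instance in macrophages, adipose tissue and epithelium. In the ileum their transcription is known to depend on the microbiota, above all on segmented filamentous bacteria that attach to the epithelium, through interleukin-22 and the transcription factor STAT3. SAA1 and SAA2 from the epithelium in turn promote interleukin-17 production by T helper 17 cells, and SAA proteins bind retinol.

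The genes lie together on mouse chromosome 7 in the RefSeq table of assembly GRCm38.p6. Saa3 spans chr7:46711998-46719615, Saa1 chr7:46740497-46743181 and Saa2 chr7:46751833-46754313, with Saa4 between Saa3 and Saa1. Saa1 and Saa2 are read in opposite directions away from each other. The 250 bases before their RefSeq start sites were 94.8% identical in a global alignment, with 11 mismatches and 2 gap columns, while those of Saa3 shared 48.2% with Saa1 and 48.0% with Saa2. They are shown because Saa1 and Saa2 varied together across the pools and Saa3 in part apart from them. RefSeq's table gives 1 window a gene, and for Saa1 and Saa3 the gene's span reaches further upstream than the start site used, so other start sites are not shown. Each sequence runs 5′ to 3′ on the gene's strand up to the base before that start site (Saa1 chr7:46742981-46743230, minus strand; Saa2 chr7:46751583-46751832, plus strand; Saa3 chr7:46715677-46715926, minus strand), with matches to C/EBP (TTNNGNAA) or NF-kB (3 G, then 5 of any base, then 2 C) motifs on either strand in capitals.
Saa1: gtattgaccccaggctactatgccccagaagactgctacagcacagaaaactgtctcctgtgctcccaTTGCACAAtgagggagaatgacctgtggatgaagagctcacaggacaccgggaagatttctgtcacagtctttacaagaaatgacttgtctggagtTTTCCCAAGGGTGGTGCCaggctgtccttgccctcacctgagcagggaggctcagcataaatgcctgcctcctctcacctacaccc
Saa2: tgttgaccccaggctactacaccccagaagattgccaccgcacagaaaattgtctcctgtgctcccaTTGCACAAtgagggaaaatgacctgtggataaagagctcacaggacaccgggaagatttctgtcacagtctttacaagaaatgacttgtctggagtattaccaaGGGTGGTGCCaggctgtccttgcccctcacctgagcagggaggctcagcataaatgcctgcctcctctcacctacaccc
Saa3: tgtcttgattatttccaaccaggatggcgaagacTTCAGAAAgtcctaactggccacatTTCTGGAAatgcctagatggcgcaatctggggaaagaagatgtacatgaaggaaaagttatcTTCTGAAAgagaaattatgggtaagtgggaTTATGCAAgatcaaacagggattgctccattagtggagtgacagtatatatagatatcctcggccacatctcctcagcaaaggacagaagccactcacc
C/EBP factors and NF-kB are the classical activators of acute-phase genes. Saa1 held C/EBP matches at -182 to -175 and -86 to -79, counted from the start site, and Saa2 held 1, at -183 to -176. In Saa1 the second of these runs directly into the NF-kB match at -78 to -69, and both print as 1 run of capitals. The NF-kB match of Saa2 lay at -79 to -70. Saa3 held 4 C/EBP matches, between -216 and -92, and no match to the NF-kB letters. The letters to which retinoic acid receptors bind (AGGTCA, on the opposite strand) stood at -164 to -159 in Saa1 and at -165 to -160 in Saa2, and none in Saa3. The STAT letters TTCNNNGAA and the TATA letters TATAAA matched in none of the 3. Such short motifs are common: of 32851 RefSeq windows from 250 bases before to 50 after a start, 40.7% held the C/EBP letters, 50.8% the NF-kB letters, 16.3% the AGGTCA letters, 8.3% the STAT letters and 13.6% the TATA letters. No measure in these data bears on binding at any of these sites.

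The probe sets of Saa1 and Saa2 cannot be taken as separate genes with certainty. The transcript accession behind 1419075_s_at, which the platform annotation calls Saa1, belongs to Saa2 in the RefSeq table, as does that behind 1449326_x_at. Each of these genes also carries the other's name among its older symbols. The suffixes _s_at and _x_at mark probe sets whose probes match several similar transcripts. Only the accession of 1450788_at pointed to Saa1 in both sources, and that of 1450826_a_at to Saa3. Levels are therefore compared within a probe set and never between probe sets.

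Before the serum amyloid values, the targeted gene was examined. Duoxa2 (1422137_at) read 8.81, 8.36 and 7.24 in the wild-type pools of cages 1, 2 and 3 and 5.90, 5.55 and 5.92 in the Duoxa-/- pools. The groups did not overlap, and the difference was -2.34 (SE 0.33; limma adjusted p = 0.794). The dim Duoxa1 and Duox1 differed by -0.15 (SE 0.12) and 0.09 (SE 0.10). Whether the Duoxa2 probes lie in the deleted sequence is not known from the sources used here. The probe sets of the ileal enterocyte genes Fabp6, Slc10a2, Slc51a, Slc51b and Fgf15 had a mean of 12.41 to 12.55 in wild-type pools and of 12.47 to 12.61 in Duoxa-/- pools. Between any pair of arrays r over all probe sets was 0.994 to 0.998.

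Saa1 was higher in the Duoxa-/- pool than in the wild-type pool of the same cage in all 3 cages, by very unequal amounts. At 1450788_at the wild-type pools of cages 1, 2 and 3 read 10.86, 13.40 and 11.57, and the Duoxa-/- pools 13.05, 13.70 and 12.26. The wild-type pool of cage 2 lay above 2 of the 3 Duoxa-/- pools, so the groups overlapped. The group means were 11.94 ± 1.31 (SD, n = 3) in wild-type and 13.00 ± 0.72 (SD, n = 3) in Duoxa-/- pools. Within cages the log2 difference was 2.19 in cage 1 (4.56-fold), 0.29 in cage 2 (1.23-fold) and 0.69 in cage 3 (1.62-fold). Over all pools it was 1.06 (SE 0.59; 95% interval -0.29 to 2.41), or 2.08-fold with an interval from 0.819-fold to 5.30-fold. With limma's moderated test the unadjusted p was 0.109 and the p adjusted over all probe sets 0.795, so without a cage term the difference was not larger than the spread between pools. With cage as a block the interval was 0.31 to 1.81 and the adjusted p 0.740.

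The second probe set under the Saa1 symbol, 1419075_s_at, gave the same order of pools. It read 10.03, 13.07 and 11.02 in the wild-type pools of cages 1, 2 and 3 and 12.68, 13.31 and 11.78 in the Duoxa-/- pools. The lowest pool was again wild-type cage 1 and the highest Duoxa-/- cage 2, 1 step above wild-type cage 2. Differences within cages were 2.65, 0.24 and 0.76, and the difference over all pools was 1.22 (SE 0.68; 95% interval -0.34 to 2.78; limma adjusted p = 0.795).

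The probe set under the Saa2 symbol, 1449326_x_at, had the same direction in each cage. It read 7.50, 9.28 and 7.66 in the wild-type pools of cages 1, 2 and 3 and 9.02, 9.29 and 8.18 in the Duoxa-/- pools. In cage 2 the pools of both genotypes were nearly equal, with a difference of 0.01, against 1.53 in cage 1 and 0.52 in cage 3. The difference over all pools was 0.68 (SE 0.45; 95% interval -0.35 to 1.72; limma adjusted p = 0.801).

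Saa3, the form made mostly outside the liver, did not have 1 direction across cages. At 1450826_a_at the wild-type pools of cages 1, 2 and 3 read 7.53, 9.02 and 8.17, and the Duoxa-/- pools 8.91, 9.40 and 7.31. The Duoxa-/- pool was higher in cage 1 by 1.38 and in cage 2 by 0.38, and lower in cage 3 by a log2 difference of -0.86. In cage 3 the probe sets of Saa1 and Saa2 thus read higher, and that of Saa3 lower, in the Duoxa-/- pool than in the wild-type pool. Over all pools Saa3 differed by 0.30 (SE 0.52; limma adjusted p = 0.914). The 95% interval of the ratio ran from 0.540-fold to 2.82-fold, and so does not show that Saa3 is alike in the genotypes.

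**Figure D1:**
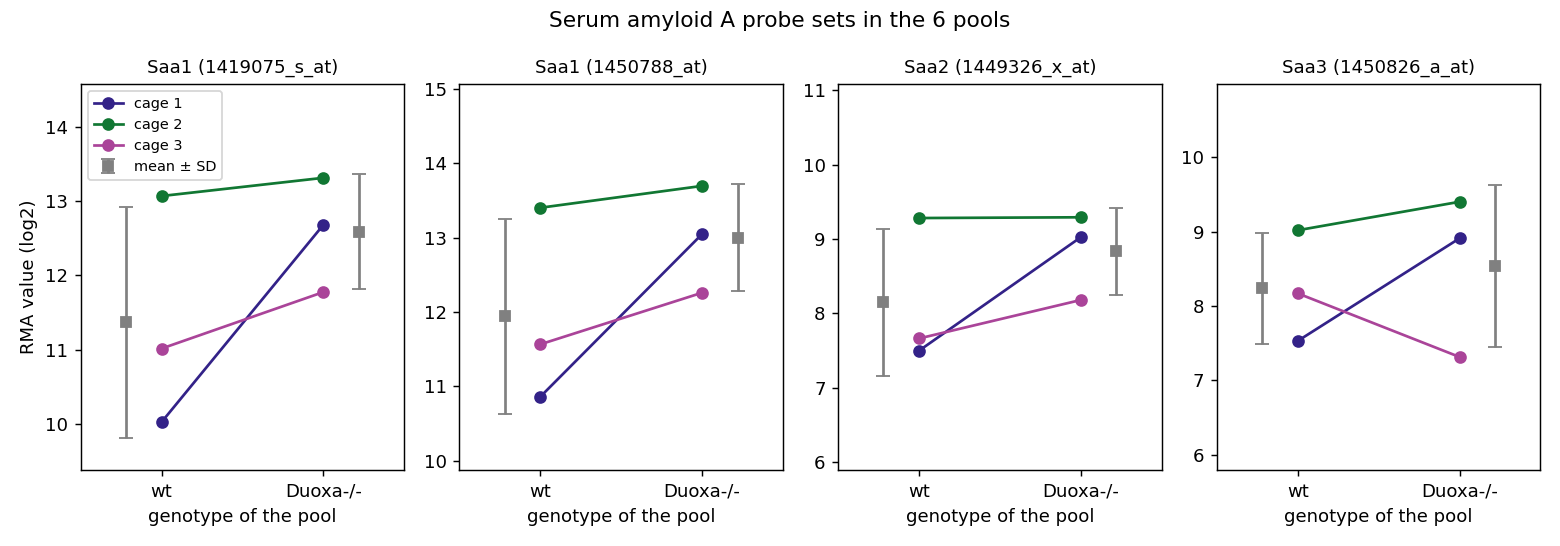
RMA values (log2, y axis) of the 4 serum amyloid A probe sets in wt and Duoxa-/- pools, with lines joining the pools of 1 cage and grey squares giving the mean ± SD of 3 pools; all panels span the same number of log2 units. At 1450788_at cage 2 stays at 13.40 and 13.70 while cage 1 goes from 10.86 to 13.05, and at 1450826_a_at cage 3 goes from 8.17 down to 7.31.

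No serum amyloid probe set passed limma's test after adjustment over all probe sets. The share of all 45037 probe sets that passed was 0%, with 5.98% at an unadjusted p under 0.05 and a smallest adjusted p of 0.794. Few probe sets had differences of this size: 3 of the 4 probe sets reached 1.5-fold higher in Duoxa-/- pools, against 0.122% of all probe sets, and 2 reached 2-fold, against 0.0155%. The same 3, those of Saa1 and Saa2, were higher in Duoxa-/- pools in all 3 cages, against 15.3% of all probe sets. In none of the 4 were the groups free of overlap, against 6.25% of probe sets whose Duoxa-/- pools all lay above the wild-type pools. The 3 probe sets may read the same transcripts and are read here as 1 observation. An exact two-sided permutation test of the 6 pools gave p = 0.3 for each probe set of Saa1 and Saa2 and p = 0.8 for Saa3, where 3 pools against 3 cannot give a p under 0.1.

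Cages are litters, which pairs the pools by design. With cage as a block, the differences were the same and their errors smaller: the SE at 1450788_at was 0.32 in place of 0.59, with an unadjusted limma p of 0.012. For 1419075_s_at the blocked p was 0.018 and for Saa2 0.029, while Saa3 had a blocked p of 0.42 and an interval of -0.53 to 1.14. Among all probe sets, 6.6% had a blocked unadjusted p under 0.05, and 3.59% had it with the Duoxa-/- pools higher. After adjustment over all probe sets none of the 4 passed (adjusted p = 0.740 for Saa1 and Saa2 and 0.859 for Saa3), nor did any other (0% called).

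**Figure D2:**
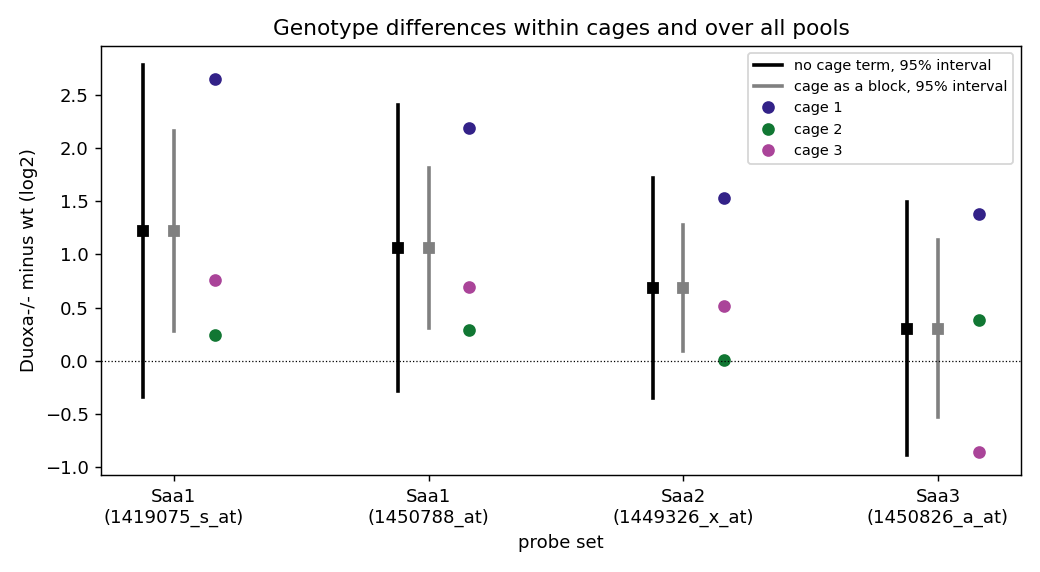
Log2 difference of Duoxa-/- minus wt (y axis) for each probe set (x axis): squares with bars are limma estimates with 95% intervals over the 6 pools without (black) and with (grey) cage as a block, and coloured points are the differences within cages 1 to 3. For Saa1 and Saa2 all 3 points lie above 0, from 0.01 to 2.65, and the blocked intervals leave out 0; for Saa3 the point of cage 3 lies at -0.86.

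The size of the difference rested on single pools. Without the wild-type pool of cage 1, the lowest of all for Saa1 and Saa2, the difference at 1450788_at was 0.52; leaving out wild-type cage 2 gave 1.79, each with a limma adjusted p of at least 0.688. At 1419075_s_at these values were 0.55 and 2.07, and at the Saa2 probe set 0.36 and 1.25. Saa3 turned to -0.05 without the wild-type pool of cage 1, to -0.13 without the Duoxa-/- pool of cage 2 and to -0.24 without cage 1, and it was 0.92 without the Duoxa-/- pool of cage 3. The wild-type pool of cage 1 also had the highest mean of the smooth muscle genes, 11.71, against 11.14 and 11.29 in the other wild-type pools and 10.92 to 11.31 in Duoxa-/- pools. The part of that tissue in the Saa values was not tested.

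**Figure D3:**
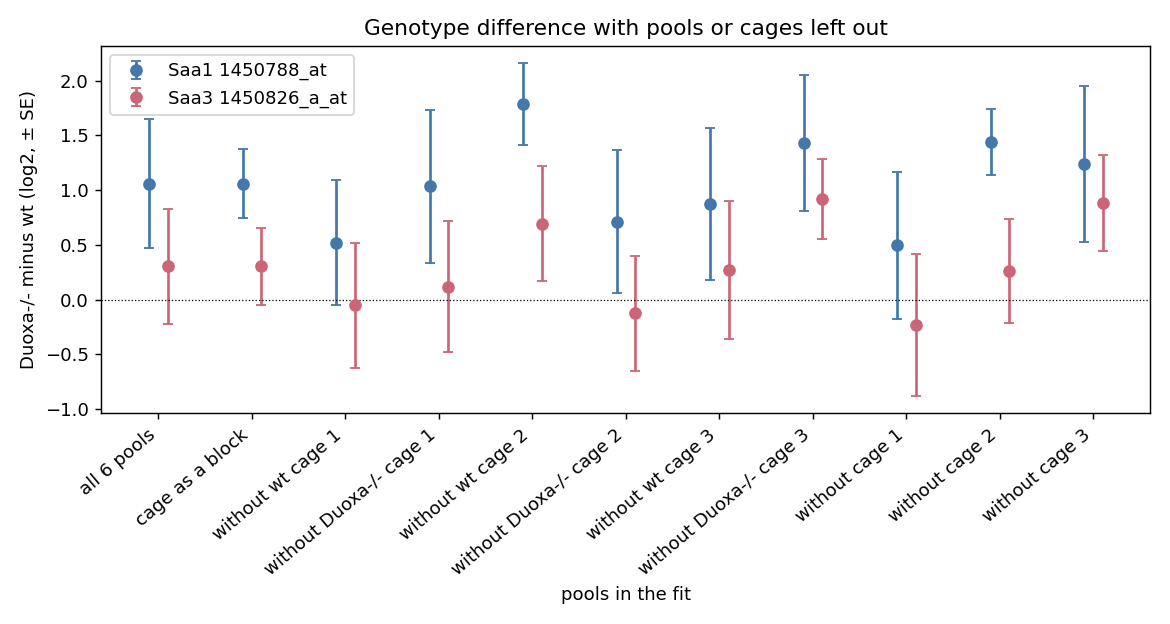
Log2 difference of Duoxa-/- minus wt ± SE (y axis) for Saa1 (1450788_at) and Saa3 (1450826_a_at) with all 6 pools, with cage as a block, and with single pools or cages left out (x axis). Saa1 stays above 0 throughout, between 0.49 and 1.79, while Saa3 lies below 0 without the wild-type pool of cage 1, the Duoxa-/- pool of cage 2 or cage 1.

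The cage accounted for more of the spread of these probe sets than the genotype. Averaged over both genotypes, 1450788_at read 11.95 in cage 1, 13.55 in cage 2 and 11.91 in cage 3, so that cage 2 stood 3.11-fold above cage 3. For 1419075_s_at the cage means were 11.35, 13.19 and 11.40, for Saa2 8.26, 9.29 and 7.92, and for Saa3 8.22, 9.21 and 7.74. Cage 2 was the highest at each of the 4 probe sets. Of the sum of squares at 1450788_at, 56.5% lay between cages, 27.3% between genotypes and 16.2% in the rest. At the Saa3 probe set 61.7% lay between cages and 3.78% between genotypes. Over all probe sets the medians were 38.1% and 15.5%. Cage has 2 degrees of freedom and genotype 1, so a larger share for cage does not by itself show a stronger effect.

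With all 6 pools in the fit, this spread between cages was not called by the F-test either. Limma's moderated F-test of cage, with genotype in the fit, gave unadjusted p values of 0.0059 at 1450788_at, 0.011 at 1419075_s_at, 0.0073 for Saa2 and 0.030 for Saa3, against 5.55% of all probe sets under 0.05. The adjusted p values lay between 0.833 and 0.886. Over all probe sets 1 passed (0.00222%), 1425871_a_at, which has no gene symbol. All 4 serum amyloid probe sets had cage means spread over at least 2-fold, against 0.264% of all probe sets. Without the Duoxa-/- pool of cage 1, the spread was 2.44 at 1450788_at and 2.91 at 1419075_s_at. Cage 1 then rests on its wild-type pool alone, the lowest of all for Saa1, and no call is given for that fit. The wild-type pools alone spanned 5.83-fold at 1450788_at and the Duoxa-/- pools 2.71-fold. At Saa3 it was the Duoxa-/- pools that spanned more, 4.25-fold against 2.81-fold. The SD over wild-type pools was 0.75 to 1.55 at the 4 probe sets, where the median probe set had 0.12, and 99.8% of probe sets had a smaller SD than the lowest of the 4.

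The 4 probe sets varied together over the pools, most closely those of Saa1 and Saa2. Across the 6 arrays Pearson's r was 0.998 between both Saa1 probe sets and 0.982 between 1450788_at and the Saa2 probe set, pairs that may share target sequence. Saa3 correlated with 1450788_at at r = 0.832. With the genotype means removed r was 0.873 for Saa3 and 0.998 for the other Saa1 probe set, so the shared pattern is found within genotypes too. These are descriptions over 6 arrays that share cages.

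Saa4, the fourth gene of the cluster and a constitutive apolipoprotein, did not share this pattern. Its probe set 1419318_at read 5.59, 5.41 and 5.47 in wild-type pools of cages 1, 2 and 3 and 5.35, 5.56 and 5.50 in Duoxa-/- pools, below the median of all probe sets and with a difference of -0.02 (SE 0.09; limma adjusted p = 0.966). The other, 1419319_at, was dimmer, at 4.72 ± 0.01 in wild-type and 4.63 ± 0.05 in Duoxa-/- pools (SD, n = 3). Among the 12 measured genes nearest the cluster, 6 on each side, differences lay between -0.15 and 0.15, with 10 of 12 higher in Duoxa-/- pools and none called by limma. The adjoining Saal1 (0.14, SE 0.08) and Hps5 (0.07, SE 0.11) had cage means that spanned 0.04 and 0.19, where Saa1 spanned 1.64. The widest spread of cage means among the 12 was 0.33, at Otog.

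Genes of the pathways that induce serum amyloid A were described from a list of cytokines, receptors and transcription factors, of which 35 of 40 were measured. The list also holds inhibitors of these pathways, such as Il1rn and Socs3. In the Duoxa-/- pools 21 were higher and 14 lower, with a median difference of 0.08, while over all 18193 genes 46.1% were higher with a median of -0.01. None passed after adjustment, and 5 had an unadjusted limma p under 0.05, against 5.41% of all genes. Il1rn, the interleukin-1 receptor antagonist, read 6.56, 6.57 and 6.64 in wild-type pools and 7.14, 7.37 and 7.10 in Duoxa-/- pools of cages 1, 2 and 3. Its groups did not overlap, and the difference was 0.61 (SE 0.09; limma adjusted p = 0.794). Il1b, which encodes interleukin-1 beta, an inducer of acute-phase genes, read 6.23, 6.67 and 6.59 in wild-type and 6.97, 7.22 and 6.86 in Duoxa-/- pools, a difference of 0.52 (SE 0.14; limma adjusted p = 0.794). Its Duoxa-/- pools also lay above all wild-type pools. For both genes the wild-type pool of cage 2 lay below every Duoxa-/- pool, which was not so for Saa1. The mean of the whole list had r = 0.931 to Saa1 over the 6 arrays. Its members were split: 3 of 35 had r over 0.9, and they ran from Il10rb (r = -0.769) to Il17a (r = 0.993).

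On the side of interleukin-6 and interleukin-22, the levels gave little contrast. Il6 lay at 4.04 to 4.37 in all pools, near the lower end of the scale, and the interleukin-22 receptor chain Il22ra1 differed by 0.08 (SE 0.09). Il22ra2, the soluble receptor that binds interleukin-22, was at 8.73 to 8.96 in wild-type and 8.95 to 9.11 in Duoxa-/- pools. Il22 itself is not given, since its probe set carries 2 gene symbols. Stat3, which transmits both signals, differed by -0.12 (SE 0.08), and Socs3, its feedback inhibitor and target, by 0.14 (SE 0.23). Socs3 was high in the wild-type pool of cage 2 (10.39) and the Duoxa-/- pool of cage 1 (10.31) and lowest in the wild-type pool of cage 1 (9.46). Cebpb and Cebpd, the C/EBP factors of the acute phase, differed by 0.13 (SE 0.11) and 0.16 (SE 0.26). Cebpa, the C/EBP factor of differentiated cells, differed by -0.35 (SE 0.13) and the retinoic acid receptors Rara and Rarg by -0.24 (SE 0.09) and -0.26 (SE 0.11). In each, all Duoxa-/- pools lay below all wild-type pools, and none passed the adjusted test (limma adjusted p = 0.794 for all 3). Naming genes by small p favours groups without overlap. The share of all probe sets lower without overlap was not counted, and can be no more than the 14.4% that were lower in all 3 cages.

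Of the genes that encode receptors or partners of serum amyloid A, 11 of 12 were measured, with 6 higher and 5 lower, a median of 0.01 and none called. Tlr4, a receptor for lipopolysaccharide that SAA can also engage, read 6.04, 6.42 and 6.13 in wild-type and 7.04, 7.19 and 6.39 in Duoxa-/- pools, a difference of 0.68 (SE 0.20; limma adjusted p = 0.794) at a level around the median probe set. Tlr2, a receptor for SAA and bacterial lipoproteins, read 7.52, 8.48 and 7.49 in wild-type and 8.81, 8.53 and 7.82 in Duoxa-/- pools, a difference of 0.55 (SE 0.31; limma adjusted p = 0.795). As for Saa1, the wild-type pool of cage 2 lay with the Duoxa-/- pools of cages 1 and 2. Fpr2, a formyl peptide receptor through which SAA attracts leukocytes, differed by 0.31 (SE 0.19) and Lrp1, an endocytic receptor that takes up SAA with retinol, by -0.26 (SE 0.14). The scavenger receptors Scarb1 (-0.18, SE 0.13) and Cd36 (0.10, SE 0.14) were not called either. The mean of this list had r = 0.819 to Saa1, with members from Lrp1 (r = -0.555) to Fpr2 (r = 0.910).

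The other acute-phase genes had no common direction between genotypes. Of 28 listed, 26 were measured, 12 higher and 14 lower, with a median of -0.02, none called and 8 at or above the median level of all probe sets. Over the 6 arrays the mean of the list nevertheless ran with Saa1 (r = 0.916) and Saa3 (r = 0.829). Its members were split: none had r over 0.9 to Saa1, and they ran from Hamp (r = -0.827) to Cd14 (r = 0.879). Itih4, which encodes a heavy chain of the inter-alpha-trypsin inhibitor family, was the 1 member with an unadjusted limma p under 0.05. It was dim and read 4.62, 4.57 and 4.58 in wild-type and 4.47, 4.26 and 4.30 in Duoxa-/- pools, a difference of -0.25 (SE 0.09; limma adjusted p = 0.794). Its Duoxa-/- pools all lay below the wild-type pools, as did those of Itih3, of the same family (-0.21, SE 0.10). How many of all probe sets have this pattern was not counted, and it can be no more than the 14.4% that were lower in all 3 cages. Both genes are among the members of this list with the smallest p, which favours groups without overlap. S100a8 and S100a9, which encode calprotectin of neutrophils and stressed epithelium, were dim and differed by 0.59 (SE 0.28) and 0.63 (SE 0.29). Their highest pool was Duoxa-/- cage 2, at 6.86 and 6.48. Cd14, the lipopolysaccharide co-receptor, read 8.75, 9.27 and 8.91 in wild-type and 9.50, 9.28 and 9.0 in Duoxa-/- pools, a difference of 0.28 (SE 0.16). The siderophore-binding Lcn2 and the haptoglobin gene Hp differed by -0.05 (SE 0.15) and -0.02 (SE 0.15), and the lipopolysaccharide-binding protein Lbp by 0.02 (SE 0.38). Lbp read 8.97 in the wild-type pool of cage 2 and 8.68 in the Duoxa-/- pool of cage 1, against 7.90 in the wild-type pool of cage 1.

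Genes of high-density lipoprotein and retinol transport, the carriers that SAA joins, had a median of -0.06, with 8 of 25 measured members higher and 17 lower and none called. Rbp2, the retinol-binding protein of enterocytes, read 10.35, 9.73 and 9.47 in wild-type and 9.12, 9.50 and 9.39 in Duoxa-/- pools, a difference of -0.51 (SE 0.21; limma adjusted p = 0.794). The phospholipid transfer protein Pltp differed by -0.29 (SE 0.10), with all Duoxa-/- pools below the wild-type pools, and the retinol dehydrogenase Rdh16 by 0.18 (SE 0.08), with all of them above. Both are among the members of this list with the smallest p, which favours groups without overlap. Cyp26a1, which degrades retinoic acid, was dim and differed by 0.17 (SE 0.11), and Apoa1, the main protein of high-density lipoprotein, by -0.07 (SE 0.09). Over the 6 arrays the mean of this list ran against Saa1 (r = -0.762) and Saa3 (r = -0.942). Single members ran from Apoa1 (r = -0.853 to Saa1) to Aldh1a3 (r = 0.891 to Saa1).

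The gene pattern nearest to Saa1 included that of interleukin-17A. Among 11605 genes at or above the median level, the 10 with the highest Pearson r to 1450788_at over the 6 arrays were Naa15, Fastkd2, Trim37, Il17a, Xpot, Nkain1, Rpl14, Pes1, Zfp593 and Ints9, with r from 0.992 to 0.995. Over so few arrays high values of r are frequent, and 6.42% of these genes had r over 0.9. Il17a, the cytokine of T helper 17 cells, ranked 4 with r = 0.993. It read 6.64, 8.0 and 7.07 in the wild-type pools of cages 1, 2 and 3 and 7.77, 7.99 and 7.28 in the Duoxa-/- pools, a smaller span than that of Saa1. Its genotype difference was 0.45 (SE 0.31; limma adjusted p = 0.810), with -0.01 in cage 2. With the genotype means removed r was 0.996, and without the wild-type pools of cages 1 and 3, the farthest from the Saa1 median, it was 0.976 over 4 arrays. The other 9 include genes of translation and ribosome assembly, such as Xpot and Pes1, over smaller spans (8.90 to 9.46 and 9.16 to 9.40). The genes running most against Saa1 were Tmem151a, Zfp651, Ptprf, Zdhhc24 and Ankrd10 (r from -0.990 to -0.986).

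Saa3 had other nearest genes. Utp23 (r = 0.996), Adam8, Btaf1, Cdc25c and D17H6S56E-5 led its list over the 6 arrays, followed by Atp13a1, Snx10, Noc4l, Ddx21 and Lst1 (lowest r = 0.984), and 2.84% of genes had r over 0.9. Adam8, a leukocyte surface protease, read 7.03, 7.44 and 7.22 in wild-type and 7.49, 7.59 and 7.04 in Duoxa-/- pools, low in the Duoxa-/- pool of cage 3 as Saa3 was. Bche, Lgals3bp, Grm4, Nr0b2 and Plxna3 ran against Saa3 (r from -0.993 to -0.986).

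Of the other genes of the epithelium that respond to microbes, 27 of 30 were measured, 16 higher and 11 lower, with a median of 0.09 and none called. In 8 the Duoxa-/- pool was higher in all 3 cages, against 13.5% of all genes. The mean of the list had r = 0.666 to Saa1. After Duoxa2, which is on this list too, the smallest p was that of Sprr1a, a cornified envelope gene. It read 7.93, 7.62 and 7.53 in wild-type and 8.11, 8.29 and 8.07 in Duoxa-/- pools, a difference of 0.47 (SE 0.12; limma adjusted p = 0.794) with no overlap of the groups. Reg3g and Reg3b, the antibacterial lectins induced by the same signals as Saa1, are among the brightest probe sets and differed by 0.11 (SE 0.10) and 0.09 (SE 0.08). Over the 6 arrays they followed Saa1 with r = 0.991 and r = 0.975 across a far smaller span, 14.42 to 14.71 for Reg3g. Nos2, the inducible nitric oxide synthase, read 6.97, 7.29 and 6.74 in wild-type and 7.50, 7.47 and 7.22 in Duoxa-/- pools, a difference of 0.40 (SE 0.14; limma adjusted p = 0.794). Tifa, an adaptor in the sensing of bacterial sugars, differed by 0.40 (SE 0.18) with r = 0.960. Within the list 6 of 27 genes had r over 0.9.

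**Figure D4:**
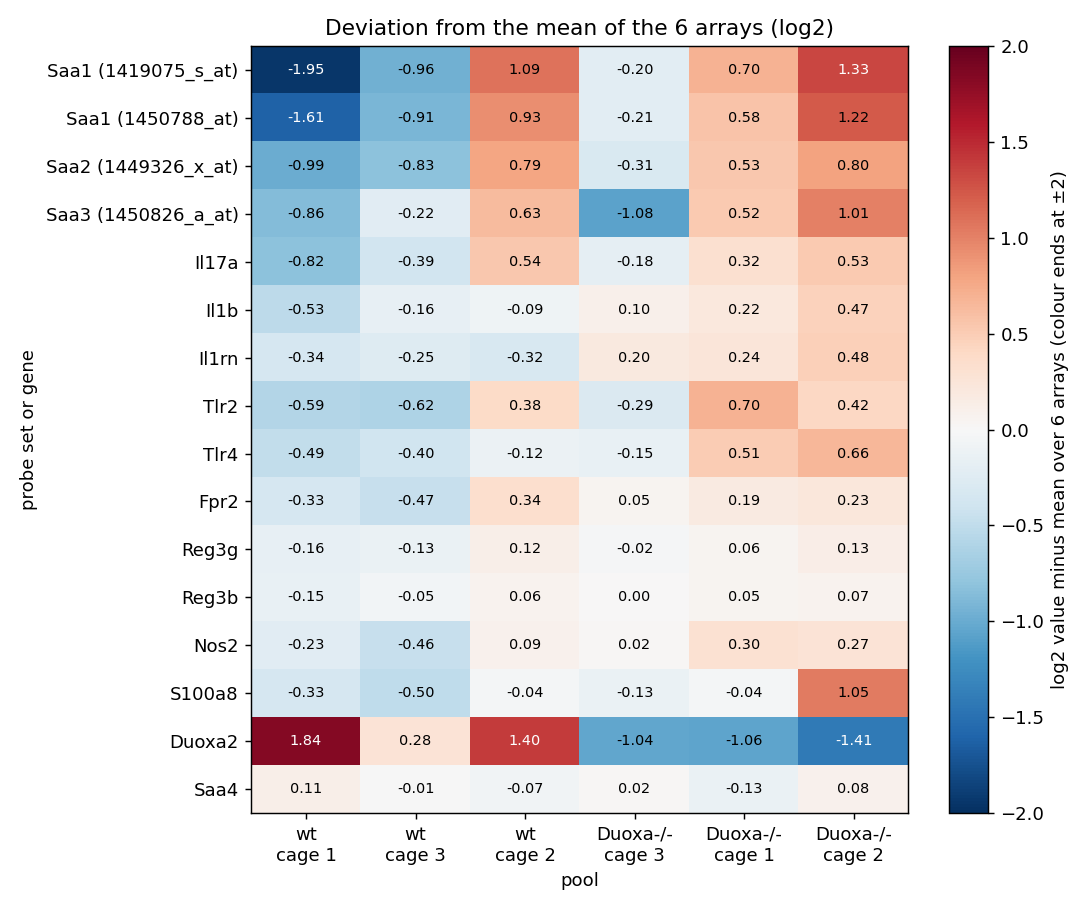
Deviation of each pool from the mean of the 6 arrays (log2, colour and printed value) for the 4 serum amyloid A probe sets, 11 genes of the lists and Saa4 (rows); columns are the pools, ordered within each genotype by the value of Saa1. The rows of Saa1, Saa2 and Il17a share 1 order of pools in wt, low in cage 1 and high in cage 2. Those of Saa3, Il1b, Tlr4, Reg3g and Reg3b have this order in wt too. Il1rn instead separates the genotypes, and Saa4 stays near 0.

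Markers of other cell types were set beside these values. The neutrophil genes were all dim, with 0 of 10 at or above the median probe set, and their mean lay at 5.10 to 5.17 in wild-type and 5.09 to 5.38 in Duoxa-/- pools. The hepatocyte genes had a mean of 6.49 to 6.59 in wild-type and 6.53 to 6.56 in Duoxa-/- pools, with r = 0.018 to Saa1. Of these, 5 of 9 lay at or above the median probe set, such as Serpina1b at 9.07 and Ttr at 8.62 over all pools. The albumin gene Alb was dim, at 5.03 and 4.95 in the group means. Single members differed in their r to Saa1, for instance Tat at 0.843 and Apoh at -0.334. Adipocyte genes were present in the tissue, Adipoq at 9.17 in both groups, with a list mean of 8.21 to 8.34 in wild-type and 7.90 to 8.42 in Duoxa-/- pools and r = -0.402 to Saa3. Macrophage and monocyte genes had a mean of 8.55 to 8.82 in wild-type and 8.54 to 8.81 in Duoxa-/- pools, highest in cage 2 in both genotypes (r = 0.839 to Saa3 and 0.720 to Saa1). The mean of the list of type 17 and group 3 lymphoid genes, which holds Il17a, had r = 0.948 to Saa1, with 7 of 11 members higher and a median difference of 0.03. In this list 1 member had r over 0.9, Il17a, and the others ran from Ncr1 (r = -0.569) to Ahr (r = 0.810). Its members with the smallest p were Ltb, a lymphotoxin subunit (0.33, SE 0.14), the chemokine receptor gene Ccr6 (0.32, SE 0.14), the T cell surface gene Thy1 (-0.25, SE 0.13) and the aryl hydrocarbon receptor gene Ahr (0.15, SE 0.10), none called. The mean of the enterocyte genes ran the other way, r = -0.853 to Saa1, over a narrow span of 12.84 to 13.02. Its members were uneven. Lct (r = -0.896) and Apoa1 (r = -0.853) ran most against Saa1, Vil1 had r = -0.311, and Krt18 (r = 0.197) and Krt19 (r = 0.155) ran weakly with it. The mean of the proximal small intestine genes had r = -0.866 between 7.80 and 8.36, but its members were split. Gata4 (r = -0.978), Cyp3a11 (r = -0.891) and Fabp1 (r = -0.643) ran against Saa1. Slc40a1 (r = 0.848), Adh6a (r = 0.580) and Cybrd1 (r = 0.304) ran with it. In bulk mucosa more cells of a type and more RNA per cell cannot be told apart, and the part of these cells in the Saa values was not tested.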

How the data were processed

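Total RNA was pooled per cage and genotype, labelled with biotin and measured on 6 single-colour Affymetrix arrays, per the labels' protocols. The authors deposited RMA values on the log2 scale, 1 per probe set, and the submitters' processing notes name affy as the package, without a version. RMA equalises the arrays' distributions and compresses differences of dim probe sets. Depth has no meaning for arrays, and their number limits the precision.

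Of 45101 rows, 64 control probe sets were left out. Limma 3.58.1 in R 4.3.3 (lmFit, eBayes, two-sided) was fitted to the other 45037, each probe set apart, without a cage term, and p values were adjusted by Benjamini-Hochberg over all of them; called means an adjusted p under 0.05. Differences are Duoxa-/- minus wild type. Cages were compared with the moderated F-test. In gene lists each gene was taken by its brightest probe set, and 3 listed names were matched under an older symbol. Of each list the 4 measured genes with the smallest unadjusted p are named, with other members chosen with their values known, and the 10 genes most like Saa1 and Saa3 with the 5 least like. The fits were tested on simulated data. Promoters were aligned with Biopython 1.88. Members and lists were chosen with earlier results of these data known, and support nothing by themselves.

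Nothing says that arrays are more than 1 measurement of a pool, so p values measure the spread between pools. Pools are paired by cage, since the series' design text makes each cage 1 litter. As a check, both pools' deviations from their genotype's mean were correlated over 1 probe set per gene. This gave r = -0.18, 0.16 and 0.34 in cages 1, 2 and 3. Between pools of different cages r ran from -0.44 to 0.40, the highest for wild-type cage 2 with Duoxa-/- cage 1. The check thus does not tell pools of 1 cage from others, and the pairing rests on the design text. Alternatives were the block, array weights, another variance prior, quantile normalization, filters on dim or cross-hybridising probe sets, 1 probe set per gene, and pools or cages left out.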

Additional observations from a re-analysis of the deposited data

How the results depend on the processing

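For Saa1 and Saa2 the difference was above 0 and not called by limma under every alternative run, 14 for 1419075_s_at, 16 for 1450788_at and 15 for 1449326_x_at, since the filters on shared probes and on 1 probe set per gene drop some of them. Leaving out 1 pool each gave 0.55 to 2.07, 0.52 to 1.79 and 0.36 to 1.25 for these 3, and -0.13 to 0.92 for Saa3. Saa3 was reversed without the wild-type pool of cage 1 (-0.05), the Duoxa-/- pool of cage 2 (-0.13) and cage 1 (-0.24). With cage as a replicate block, 1450788_at kept its difference of 1.06 (adjusted p = 0.740), and the block changed no call.

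Over all probe sets 0 were called between genotypes, and 1, Duoxa2, without the wild-type pool of cage 3, so 0 to 1 with 1 pool left out. The F-test of cage called 1 probe set, 9 with the trend and robust variance prior, and 1 to 16 with 1 pool left out. With 1 pool left out its spread was 1.11 to 2.91 at 1419075_s_at, 1.06 to 2.44 at 1450788_at, 0.86 to 1.87 for Saa2 and 0.99 to 2.34 for Saa3, where the lone pool of a cage is assumed to vary like the others. The spread of both Saa1 probe sets was widest without the Duoxa-/- pool of cage 1 (2.91 and 2.44), and the cause was not tested. With 3 pools a group, the interval at 1450788_at runs from 0.819-fold to 5.30-fold.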
